A study of Mus musculus with 2 samples.

Results

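The genes described here are those of cholesterol synthesis, its control by SREBP factors, and cholesterol export under LXR receptors, 31 listed genes in all, of which 28 were measured. A gene counted as measured where at least 1 probe set of the array carried its name and no other gene's in the platform annotation, and its value was the mean over those probe sets on the log2 scale. By the same rule 19935 genes were measured over the whole array. No probe set named Acat2 (cytosolic acetoacetyl-CoA thiolase), Soat1 (the cholesterol esterifying enzyme of macrophages) or Nr1h2 (LXR beta) alone, so these 3 genes were not analysed here. No lipoprotein receptor is among the 31, and uptake is therefore covered below only through a list of related genes.

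The RNA came from bone marrow mononuclear cells of 6-week-old ddY mice, separated on a Lympholyte-M gradient and sorted with antibodies to RANK and c-Fms. One population was RANKhigh Fmslow and the other RANKlow Fmshigh, here called the RANKhigh and the c-Fmshigh population, and each was hybridised to 1 array. No treatment or genetic change is recorded for either. The gate used these 2 receptors only, and the number of mice behind each array is not given in the sources used here. With 1 array per population no difference has a replicate error or a test, and each value below describes these 2 arrays. A difference is the log2 intensity of the RANKhigh array minus that of the c-Fmshigh array, so a negative value means a lower intensity in RANKhigh cells, and intensities of different genes are not compared with each other because probe sets differ in brightness.

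The pathway starts from acetyl-CoA, passes through mevalonate to the prenyl diphosphates, and from squalene through lanosterol to cholesterol. When sterols in the endoplasmic reticulum are low, the escort protein SCAP carries SREBP precursors to the Golgi, where they are cleaved into transcription factors that switch on most of these enzymes, while INSIG proteins hold SCAP back when sterols are plentiful. Oxysterols that accumulate with cholesterol bind LXR receptors, which switch on the export pumps ABCA1 and ABCG1 and the carrier apolipoprotein E. In the osteoclast lineage the prenyl branch is known as the site of action of nitrogen-containing bisphosphonates, which inhibit farnesyl diphosphate synthase.

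The sorted populations differed widely in other marker genes, which sets the frame for every value below. Csf1r, the c-Fms gene, had an intensity of 164 in RANKhigh and 821 in c-Fmshigh cells. Tnfrsf11a, the RANK gene, stood at 104 and 119, a small difference (-0.20) that did not follow the direction of the sort label. Both values lay not far above the background guide described below (83.8 and 81.8). The sort used antibodies to the receptor proteins, whereas the arrays measured RNA. All 7 measured monocyte markers were lower on the RANKhigh array, with a median difference of -2.19 and a summed intensity of 3404 against 16926. In contrast, all 9 neutrophil (median 2.50, summed 35664 against 9927), 6 eosinophil and basophil (2.28, 13439 against 1467), 7 erythroid (2.35, 11283 against 2907), 7 B-lineage (2.16, 10222 against 2658) and 6 T and NK cell markers (1.39, 2438 against 808) were higher there. Macrophage markers were divided, 4 lower and 5 higher of 9 (median 0.01, 2698 against 3756). Of the 7 that passed the level filter described below, 4 were lower and 3 higher (median -0.06). The 8 measured cell cycle genes had a median of 0.29 (11987 against 9828). Olfactory and vomeronasal receptor genes (1189 genes, not known as a class in blood cells) served as a guide to background, with 95th percentiles of 83.8 and 81.8 on the RANKhigh and c-Fmshigh arrays. Of the markers, Mertk of macrophages was below this guide on both (53.7 and 53.2), and Epx of eosinophils (75.4) and Cpa3 of basophils and mast cells (58.1) were below it on the c-Fmshigh array. The part of these cell types in the differences of the cholesterol genes was not tested, and fewer cells of a type and less RNA per cell cannot be told apart in such bulk samples.

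Enzymes of cholesterol synthesis were mostly lower on the RANKhigh array, but by small amounts. Of 18 measured enzymes, 15 were lower and 3 higher there, with a median difference of -0.31 and a range from -1.04 to 0.62. The median over all 19935 genes was 0.01. To leave out dim genes, counts by size were made where the higher of both values reached 93.6, the median of all values on the arrays, and 17 of the 18 enzymes passed. Of these 17, 14 lay below 0, beside 51.1% of all 11089 genes that passed. At 2-fold or more, 1 enzyme was lower and 0 were higher, and over all genes 4.26% were lower and 4.34% higher by that much. At 1.5-fold or more 5 were lower and 1 was higher, beside 12.4% and 10.5% of all genes. Among genes of any function that passed this filter and were read by exactly 2 probe sets (558 genes), the median gap between the 2 differences was 0.19 and the 90th percentile 0.67. This is disagreement between probe sets on the same 2 arrays, and leaves out variation between animals and between replicate arrays. The median is called the usual gap below, and many genes exceed it. Of the synthesis enzymes only Hmgcs1, Idi1, Fdps and Cyp51 differed by more than 0.67, each lower on the RANKhigh array.

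**Figure D1:**
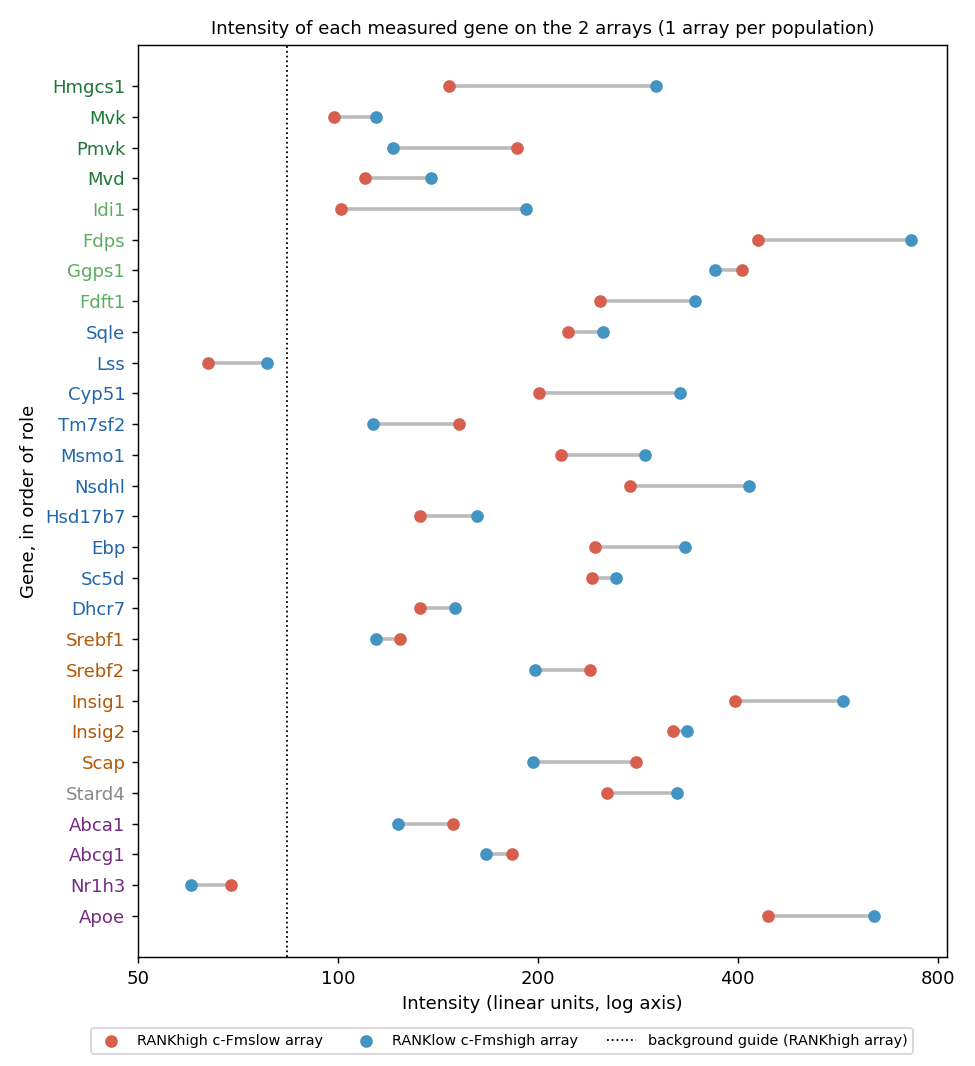
Intensity of the 28 measured genes on the RANKhigh c-Fmslow (red) and RANKlow c-Fmshigh (blue) arrays, 1 array each, on a log axis; names are coloured by role and the dotted line is the background guide of the RANKhigh array (83.8). The blue point lies to the right of the red for 15 of the 18 synthesis enzymes (Hmgcs1 to Dhcr7), and only Lss and Nr1h3 lie left of the dotted line.

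The mevalonate segment held both the lowest and the highest difference of all 28 measured genes. Hmgcs1, the cytosolic HMG-CoA synthase that commits acetyl units to the pathway, had an intensity of 147 in RANKhigh and 301 in c-Fmshigh cells, 2.05-fold lower in the former (-1.04). It was the single member past 2-fold, a call that was lost when 50 was added to each value before log2 (-0.84), and 3.97% of the 11089 genes had a lower difference. Pmvk, phosphomevalonate kinase, went the other way at 186 against 121 (1.54-fold higher, 0.62), a difference larger than that of 90.3% of genes. The enzymes on either side of it, mevalonate kinase (Mvk, 98.7 against 114, difference -0.21) and mevalonate diphosphate decarboxylase (Mvd, 110 against 138, difference -0.32), were slightly lower on the RANKhigh array.

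In the prenyl segment 3 of 4 enzymes were lower in RANKhigh cells, 2 of them past 1.5-fold. Idi1, the isomerase that interconverts the prenyl building blocks, stood at 101 against 192, 1.90-fold lower (-0.92). Its 2 probe sets gave 89.9 against 181 (-1.01) and 114 against 204 (-0.84), so they lay on opposite sides of 2-fold and had the same direction. Fdps, farnesyl diphosphate synthase, stood at 429 against 729, 1.70-fold lower (-0.76), and 7.83% of genes had a lower difference. Squalene synthase (Fdft1), which turns farnesyl diphosphate towards sterols, was 1.39-fold lower at 248 against 345, with differences of -0.52 and -0.44 from its 2 probe sets. Ggps1, geranylgeranyl diphosphate synthase, which takes the same substrate towards protein prenylation, stood at 406 against 370 (0.13), a gap smaller than the typical one between probe sets of a gene.

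Of the 10 enzymes from squalene to cholesterol, 9 were lower on the RANKhigh array, none of them by 2-fold (median -0.29). Cyp51, the lanosterol demethylase, was lowest at 201 against 328 (1.64-fold lower, -0.71). The enzymes that together remove the C4 methyl groups of the sterol ring were all lower: Nsdhl, the dehydrogenase, stood at 275 against 416 (-0.60), Msmo1, the methylsterol oxidase, at 217 against 290 (-0.42), and Hsd17b7, the ketoreductase, at 133 against 162 (-0.28). Ebp, the sterol isomerase, stood at 244 against 333 (-0.45).

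Smaller differences were seen at squalene epoxidase and at the end of the pathway. Sqle, the epoxidase, stood at 222 against 251 (-0.18), Sc5d, a desaturase, at 241 against 262 (-0.12), and Dhcr7, the reductase that yields cholesterol, at 133 against 150 (-0.17), each within the usual gap between probe sets. Lss, lanosterol synthase, stood at 63.7 against 78.2, not above the background guide on either array, and no difference can be stated for it, although it counts among the 15. Tm7sf2, a sterol reductase, was the exception in direction, 1.35-fold higher in RANKhigh cells at 152 against 113 (0.43).

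**Figure D2:**
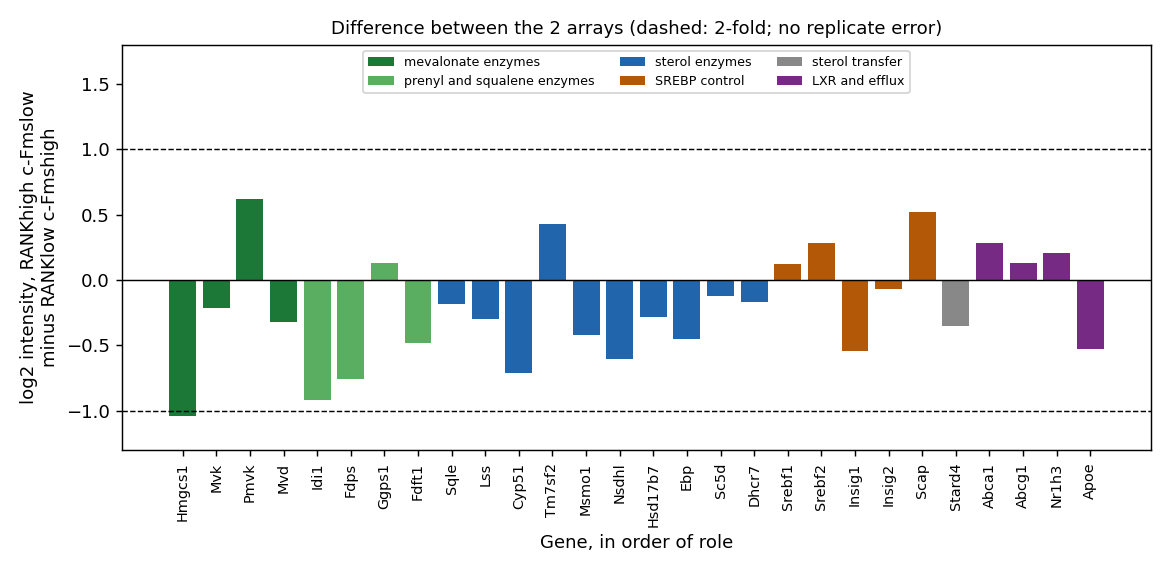
Difference in log2 intensity (RANKhigh c-Fmslow minus RANKlow c-Fmshigh, 1 array each) for the 28 measured genes in order of role; dashed lines mark 2-fold. Hmgcs1 (-1.04) is the only bar that passes a dashed line, Pmvk (0.62) and Scap (0.52) are the highest, and the bars of 9 of the 10 sterol enzymes (blue) point down.

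The upstream sequences are shown as a description, and their part in the differences between the arrays was not tested. RefSeq windows on GRCm38.p6, from 250 bases before to 50 bases after an annotated start, were matched by symbol for 26 of the 31 genes (37 windows). Fdps, Fdft1, Sqle, Stard4 and Abcg1 were not matched. On both strands 3 sets of letters were searched: TCACNCCAC, like the sterol regulatory element that SREBP factors bind, CCAAT, the box bound by NF-Y, a partner of SREBP, and GGGCGG, the GC box bound by Sp1. Matches in these windows did not overlap one another (0 overlaps). The lines below give the 150 bases before the start that lies farthest 5′, in the direction of the gene, with the matched letters in capitals (ATTGG and CCGCCC are the CCAAT and GGGCGG letters on the other strand). They are the 4 lowest synthesis genes with a window, the 2 highest, and Abca1 for the export genes.
Hmgcs1 (chr13:119690201-119690350, plus strand): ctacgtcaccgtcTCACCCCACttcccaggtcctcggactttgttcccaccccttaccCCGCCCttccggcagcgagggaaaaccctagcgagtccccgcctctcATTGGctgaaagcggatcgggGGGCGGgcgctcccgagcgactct
Idi1 (chr13:8885456-8885605, plus strand): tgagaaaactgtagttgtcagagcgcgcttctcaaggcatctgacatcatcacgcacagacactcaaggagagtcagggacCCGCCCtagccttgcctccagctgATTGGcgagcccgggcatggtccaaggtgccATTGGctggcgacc
Cyp51 (chr5:4104698-4104847, minus strand): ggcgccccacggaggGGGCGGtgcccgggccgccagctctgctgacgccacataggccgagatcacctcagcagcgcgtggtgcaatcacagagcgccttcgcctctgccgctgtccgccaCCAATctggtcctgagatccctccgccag
Nsdhl (chrX:72918371-72918520, plus strand): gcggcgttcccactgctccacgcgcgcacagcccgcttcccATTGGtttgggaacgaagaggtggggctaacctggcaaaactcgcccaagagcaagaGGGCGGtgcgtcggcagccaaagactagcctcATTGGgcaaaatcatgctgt
Pmvk (chr3:89454391-89454540, plus strand): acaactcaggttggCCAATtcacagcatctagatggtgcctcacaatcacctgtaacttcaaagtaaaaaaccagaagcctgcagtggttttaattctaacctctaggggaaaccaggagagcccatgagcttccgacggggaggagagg
Tm7sf2 (chr19:6067851-6068000, minus strand): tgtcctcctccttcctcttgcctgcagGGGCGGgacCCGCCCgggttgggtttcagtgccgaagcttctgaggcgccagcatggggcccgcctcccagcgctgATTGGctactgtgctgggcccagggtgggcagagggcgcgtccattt
Abca1 (chr4:53159896-53160045, minus strand): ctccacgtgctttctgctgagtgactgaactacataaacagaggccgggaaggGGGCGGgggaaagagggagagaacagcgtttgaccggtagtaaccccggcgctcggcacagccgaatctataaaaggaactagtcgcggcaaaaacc

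CCAAT letters were found for 15 of the 16 synthesis genes with a window, the exception being Acat2, and for 10 of the 16 more than once. Over all 27025 genes with windows the share with at least 1 match was 41.1%, and over all 32851 windows 37.4%. The share with more than 1 match was not computed over all genes, so the 10 of 16 has nothing to be compared with. Mvk had 5 matches and Hmgcs1 and Nsdhl 4 each. The letters were also present in genes that lay higher on the RANKhigh array, such as Pmvk, Tm7sf2 and Ggps1. Because Acat2 was not measured, every measured synthesis gene with a window held them, so their presence could not separate the directions. Of 5 SREBP control genes 4 had them, and of the 4 LXR and export genes with a window (Abca1, Nr1h2, Nr1h3 and Apoe) 0 did. GGGCGG letters stood in 14 of the 16 synthesis genes, 5 of 5 control genes and 1 of 4 export genes, beside 38.2% of all genes and 35.7% of all windows. The longer TCACNCCAC letters occurred in 1 member only, Hmgcs1, where they begin 137 bases before the start; 1.44% of all genes and 1.24% of all windows hold them. These are matches of letters and not evidence of binding. Each element was searched by 1 pattern only, so a window without a match may still hold another form of it. Nor does such a window say anything of sites elsewhere.

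The SREBP control genes were divided, with 3 higher and 2 lower on the RANKhigh array and a median of 0.12, or 0.07 after quantile normalization. At 1.5-fold 0 of 5 were called, beside 12.4% of all genes lower and 10.5% higher, so this count says little. Srebf2, whose protein mainly drives sterol synthesis genes, stood at 240 against 198 (1.21-fold higher, 0.28). Srebf1, whose products mainly drive fatty acid genes, stood at 124 against 114 (0.12). The difference of Srebf1 lay within the usual gap between probe sets of a gene. A further probe set, which names 4 genes with Srebf2 among them and was used for none, had the opposite sign at 830 against 1072 (-0.37), and which transcript it measured was not tested. Scap, the escort protein, was 1.43-fold higher at 281 against 197 (0.52), above 87.6% of genes.

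The INSIG genes, which encode the retention proteins, differed from each other in size. Insig1, itself a target of SREBP, was 1.46-fold lower in RANKhigh cells at 396 against 577 (-0.54), on the same side as the synthesis enzymes. Insig2 stood at 320 against 336 (-0.07). Stard4, a soluble carrier that moves sterol between membranes, was likewise lower at 254 against 324 (-0.35).

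**Figure D3:**
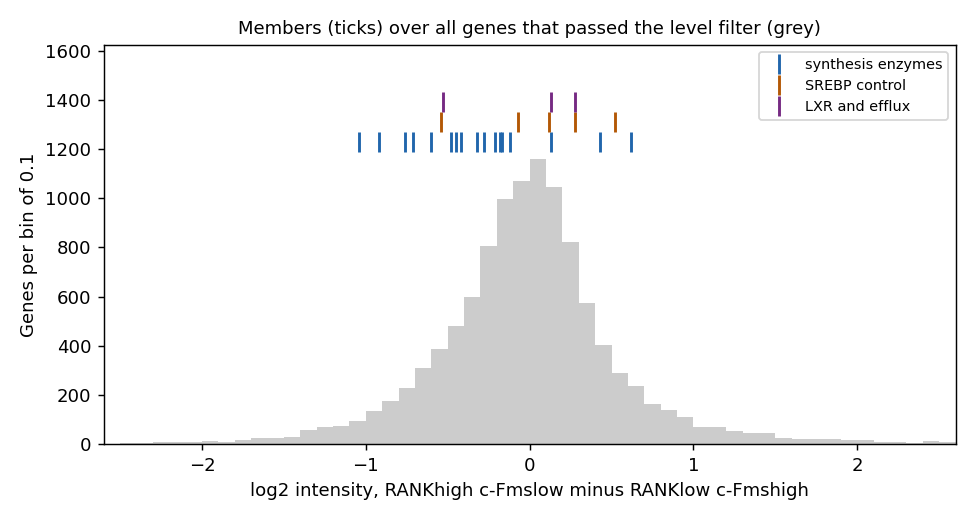
Number of genes per bin of 0.1 in the log2 difference (RANKhigh c-Fmslow minus RANKlow c-Fmshigh) for all 11089 genes past the level filter (grey, the axis is cut at both ends), with the members that passed as ticks above; tick height has no meaning. Of the 17 ticks of synthesis enzymes 14 lie left of 0, while the 5 control genes and 3 export genes that passed lie on both sides.

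Genes of LXR control and cholesterol export differed little. Of 4 measured, 3 were higher and 1 was lower on the RANKhigh array, with a median of 0.17, or 0.08 when values under the background guide were raised to it. Of the 3 that passed the level filter (median 0.13), 0 reached 1.5-fold, beside 12.4% of all genes lower and 10.5% higher by that much. At such shares a count of 0 among 3 genes says little. Abca1, the pump that loads cholesterol onto lipid-poor apolipoprotein, stood at 149 against 123 (1.22-fold higher, 0.28). Abcg1, which exports cholesterol to formed lipoprotein particles, stood at 183 against 167 (0.13), within the usual gap between probe sets. Apoe, a secreted lipid carrier typical of macrophages, was 1.44-fold lower in RANKhigh cells at 444 against 642 (-0.53). Nr1h3, which encodes LXR alpha, stood at 69.1 against 60.0 and was not above the background guide on either array, so its difference cannot be stated. Of the genes that passed, only Abca1 and Apoe exceeded the usual gap, with opposite signs, so the group had no common direction. Whether synthesis and export genes differed from each other could not be tested with 1 array per population.

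Genes of the pathways next to cholesterol synthesis were compared by lists, whose genes were named by size (the 3 largest differences among those that passed the level filter). Counts of lower genes in each list are to be read against the 51.1% of all genes that lay below 0. Uptake and lysosomal release had the lowest median of the 6 lists, -0.89 over the 12 genes that passed, and 9 of the 12 were lower in RANKhigh cells. By 2-fold or more 5 of the 12 were lower, beside 4.26% of all genes, and 1, the fatty acid and lipoprotein receptor Cd36, was higher, beside 4.34%. Msr1, the scavenger receptor of macrophages for modified lipoproteins, stood at 209 against 1119 (5.34-fold lower). Lipa, the lysosomal acid lipase that frees cholesterol from its esters, stood at 243 against 1035 (4.26-fold lower), and Npc2, which hands that cholesterol to the lysosomal membrane, at 777 against 2098 (2.70-fold lower). Monocyte markers lay in the same direction (median -2.19), and their part in these values was not tested.

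Fatty acid synthesis, the other branch under SREBP, was divided, with 6 of 11 genes lower and 5 higher (median -0.06). Scd1, the stearoyl-CoA desaturase, was 3.97-fold higher in RANKhigh cells at 1017 against 256. Acaca, acetyl-CoA carboxylase, stood at 105 against 224 (2.15-fold lower), with its 2 probe sets at -1.24 and -0.96, and the elongase gene Elovl6 at 176 against 348 (1.98-fold lower). Each of these 3 differences was larger than that of any cholesterol enzyme except Hmgcs1, which exceeded Elovl6 (-1.04 and -0.99).

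Genes that process SREBP or degrade sterol-regulated proteins were also divided, 3 lower and 3 higher of 6. Syvn1, a ubiquitin ligase of the endoplasmic reticulum, was 3.14-fold higher at 660 against 210. Erlin1 and Erlin2, partner proteins of endoplasmic reticulum membranes that bind cholesterol and act in sterol-regulated degradation, were both lower in RANKhigh cells, at 284 against 728 (2.56-fold) and 198 against 401 (2.03-fold).

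Enzymes that use prenyl diphosphates had a median of 0.05 among 12 genes past the filter, of which 5 were lower and 7 higher. The pair Dhdds and Nus1, subunits of the enzyme that builds dolichol chains, was lower on the RANKhigh array, at 195 against 442 (2.26-fold) and 436 against 687 (1.58-fold). Fnta, the alpha subunit shared by farnesyltransferase and a geranylgeranyl transferase, stood at 253 against 387 (1.53-fold lower).

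Among LXR partners and targets 4 of 8 genes were lower and 4 higher (median 0.14). Smpdl3a, a phosphodiesterase gene induced by LXR in macrophages, stood at 310 against 1156 (3.73-fold lower), the lipid droplet protein gene Plin2 at 451 against 861 (1.91-fold lower) and the cholesterol ester hydrolase gene Nceh1 at 192 against 351 (1.83-fold lower). Of 5 oxysterol genes 4 were lower and 1 higher (median -0.25), with Cyp27a1, the mitochondrial sterol hydroxylase, at 184 against 350 (1.90-fold lower), Osbpl9 at 998 against 1269 (1.27-fold lower) and Osbpl1a at 144 against 172 (1.19-fold lower). The genes named from the LXR list were its largest differences and were all lower, while 4 of its 8 genes were higher. That list thus had no common direction.

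**Figure D4:**
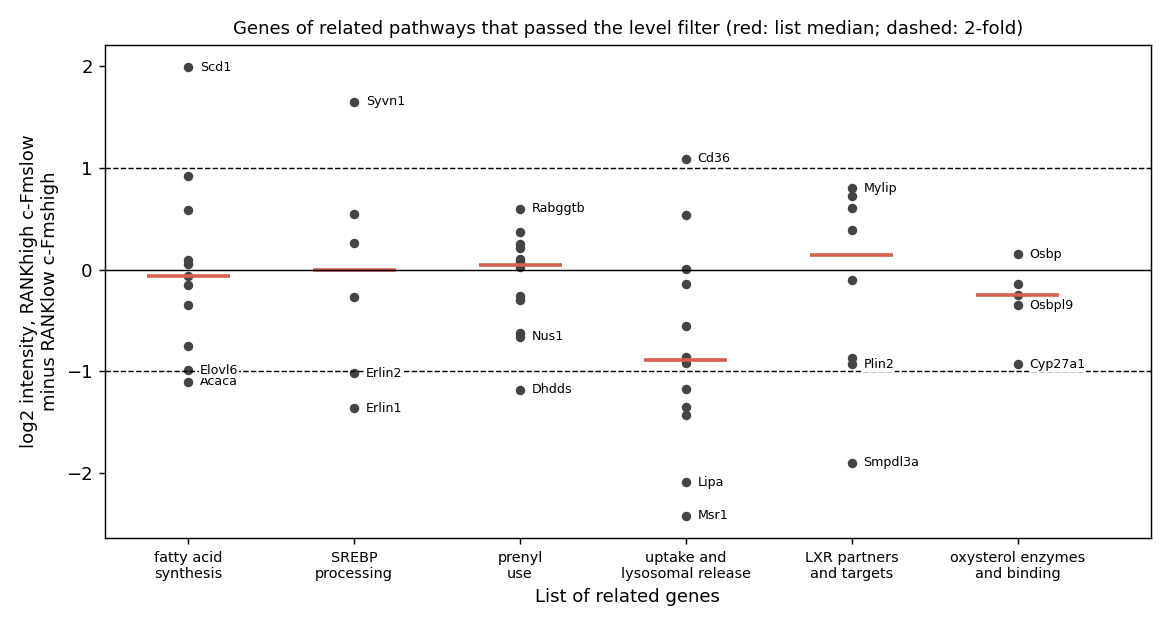
Difference in log2 intensity (RANKhigh c-Fmslow minus RANKlow c-Fmshigh, 1 array each) for genes of 6 related lists that passed the level filter; each point is a gene, the red line is the list median, dashed lines mark 2-fold, and the 2 lowest and the highest gene of each list are named. The uptake and lysosomal release list has the lowest median (-0.89), led by Msr1 (-2.42) and Lipa (-2.09), and the highest single point is Scd1 (1.99).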

How the data were processed

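The deposited values were linear intensities, 1 per probe set and array, that the authors had made with GCOS 1.4 and RMA, per the submitters' processing notes. The roles and order of these tools, and the array's genome build, were not given in the sources used here. Log2 was taken with no pseudocount or further scaling, in Python 3.11.15 with numpy 2.4.6 and pandas 2.3.3. Of 28815 probe sets, 21780 named 1 gene, 1605 named several and 5430 none, and only the first kind was used. All 28 measured members kept their symbol in the RefSeq table of GRCm38.p6. No depth applies to arrays; with 1 array per group their number limits the precision, and no test was run. Sizes were counted at 2-fold and 1.5-fold. Alternatives were another probe set summary, 2 scalings, a floor, an offset, 2 level filters and another threshold. The members and lists were chosen with earlier results of these data known. Named are all members, the sort markers and, per related pathway list, the 3 largest differences among genes passing the level filter; Cd36 was named outside this rule, after its value was seen, as the 1 gene of its list at least 2-fold higher. Marker lists were given as counts and sums.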

Additional observations from a re-analysis of the deposited data

How the results depend on the processing

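The medians of the synthesis (-0.35 to -0.22), control (0.07 to 0.12) and export groups (0.08 to 0.17) kept their sign under the other probe set summary, quantile normalization, median centring, the floor at the background guide and the offset of 50. Of 140 recomputed member differences 137 moved by less than 0.19, the usual gap between 2 probe sets, but many of them could not move. The other summary could change only Idi1 and Fdft1, which have 2 probe sets, and the floor only Lss and Nr1h3. Median centring shifted every gene by the same amount, so the count of 137 does not measure robustness. The offset could not reverse the sign of a gene with 1 probe set. The kept signs of the medians therefore also say little of robustness. Of the 3 differences that moved by more than 0.19, Lss went from -0.30 to 0.03 with the floor, as both its values lay below it. With the offset Hmgcs1 went to -0.84 and Idi1 to -0.68. The offset shrinks low values, and left 0 members, 319 genes higher and 311 lower at 2-fold. The 1.5-fold threshold gave 1 member higher and 5 lower, and 1168 and 1371 genes. No paired analysis was possible because each group had 1 array, and for the same reason no array could be left out.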
